A study of Mus musculus with 20 samples.

Results

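A set of 8107 narrow open chromatin regions that lay at the ends of protein-coding genes and were found in every ATAC library of mouse hematopoietic stem cells (HSCs) is described here. ATAC-seq marks accessible DNA by transposon insertion. Merging every set of peaks with 1 bp or more in common across the 6 deposited lists gave 149774 regions. A region was kept when all 6 lists had a peak in it, when it was narrower than 1500 bp and when it lay within 1000 bp of an annotated gene end. The members therefore make up 5.41% of all merged regions and 42.2% of the 19226 narrow regions with a peak in all 6 lists. They were selected on measured values, namely the presence and width of peaks, so peak number, breadth and strength are given below as descriptions without a test. RNA and promoter sequence were not used to choose them.

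HSCs were sorted from marrow of C57BL/6 mice as lineage-negative cells with cKit, Sca1 and CD150 but without CD48. Control animals had intact Kdm6b together with the Vav-CRE driver (Vav-CRE Kdm6b+/+), and Kdm6b-KO animals had the same driver with floxed Kdm6b (Vav-CRE:Kdm6bfl/fl). The Vav driver acts throughout the blood system, so deletion is directed to the stem cells and their marrow descendants. The extent of deletion in these libraries was not tested. For RNA there were 3 libraries of each genotype, and every library pooled the marrow of 6 mice (3 male, 3 female) that were 8 weeks old. ATAC libraries, also from mice that were 8 weeks old, came from 10000 sorted cells each, 3 titled Control and 3 titled 6bKO. The genotype label of all 6 ATAC libraries reads wild-type, so their groups rest on the titles. The remaining 8 of 20 samples (histone immunoprecipitation and input DNA) are not analysed here.

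As background, transcription of most genes begins in a short stretch free of nucleosomes, and at widely used genes this stretch is usually rich in CpG dinucleotides. Factors such as SP and KLF proteins, NF-Y, ETS proteins, NRF1 and YY1 bind short DNA motifs there. Genes of limited cell types more often rely on distant enhancers and have promoters poor in CpG. Kdm6b encodes a demethylase that removes the repressive methyl marks of histone H3 lysine 27.

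The 250 bases before the start of 6 genes are shown because these genes carry the RNA results or mark the extremes of peak strength described below. The sequences are from RefSeq on GRCm38.p6, the assembly of mm10, and each is written 5′ to 3′ on the strand of its gene, ending at the base before the start. Capitals mark exact matches on either strand to the searched letters: GGGCGG for SP and KLF, CCAAT for NF-Y, CCGGAAG for ETS, TGACGTCA for CREB and ATF, and TATAAA for the TATA box. Kpna2, an importin that carries proteins into the nucleus, was the strongest faller among them.
Kpna2 (chr11:106999526-106999775, minus strand): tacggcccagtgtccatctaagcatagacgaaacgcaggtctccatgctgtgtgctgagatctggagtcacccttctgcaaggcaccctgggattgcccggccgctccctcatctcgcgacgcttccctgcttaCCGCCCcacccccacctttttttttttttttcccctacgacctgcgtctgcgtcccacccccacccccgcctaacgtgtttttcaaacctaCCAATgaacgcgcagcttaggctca
Fn3krp (chr11:121421123-121421372, plus strand): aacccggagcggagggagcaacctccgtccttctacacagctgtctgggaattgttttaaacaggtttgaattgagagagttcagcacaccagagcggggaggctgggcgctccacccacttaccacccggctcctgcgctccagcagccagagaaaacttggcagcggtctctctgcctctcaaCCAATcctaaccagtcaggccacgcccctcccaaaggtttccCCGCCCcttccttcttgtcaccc
Dusp1 (chr17:26508473-26508722, minus strand): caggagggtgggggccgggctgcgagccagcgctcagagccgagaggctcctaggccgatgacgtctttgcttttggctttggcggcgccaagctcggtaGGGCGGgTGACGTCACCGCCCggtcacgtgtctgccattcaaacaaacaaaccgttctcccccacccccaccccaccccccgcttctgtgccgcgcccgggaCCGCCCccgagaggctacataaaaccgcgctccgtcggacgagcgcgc
Fos (chr12:85473640-85473889, plus strand): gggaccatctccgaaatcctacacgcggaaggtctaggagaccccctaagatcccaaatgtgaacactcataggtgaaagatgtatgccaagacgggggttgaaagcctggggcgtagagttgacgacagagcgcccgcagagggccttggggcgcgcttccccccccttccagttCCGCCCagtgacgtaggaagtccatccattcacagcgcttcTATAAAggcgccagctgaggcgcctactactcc
Zfp36 (chr7:28379229-28379478, minus strand): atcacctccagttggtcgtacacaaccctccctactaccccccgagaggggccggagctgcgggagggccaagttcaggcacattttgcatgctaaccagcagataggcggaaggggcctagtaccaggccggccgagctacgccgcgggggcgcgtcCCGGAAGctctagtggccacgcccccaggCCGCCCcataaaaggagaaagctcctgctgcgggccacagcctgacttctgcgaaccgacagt
Arrdc4 (chr7:68749239-68749488, minus strand): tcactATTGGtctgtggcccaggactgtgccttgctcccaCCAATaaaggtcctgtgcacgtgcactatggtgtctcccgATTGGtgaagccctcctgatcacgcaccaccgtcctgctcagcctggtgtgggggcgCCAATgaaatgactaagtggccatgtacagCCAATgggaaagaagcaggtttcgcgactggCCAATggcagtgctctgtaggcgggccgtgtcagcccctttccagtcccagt
The Dusp1 window has its CREB and ATF match between a pair of SP and KLF matches that lie on opposite strands, and a further SP and KLF match nearer to the start. Fos has a TATA box 33 bases before its start. Arrdc4, an arrestin-related gene at one of the 5 strongest member regions, has 6 CCAAT matches and no other searched motif. Zfp36 starts inside the member region of lowest rank and has 1 ETS match and 1 SP and KLF match. Kpna2 and Fn3krp, a kinase of glycated proteins, both combine 1 CCAAT match with 1 SP and KLF match. A match is a run of letters and not a measured binding site.

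The member regions touched gene starts far more often than far ends. They served 8923 of 21887 protein-coding genes, or 40.8%. A strand was given for 17492 of the genes, and 6718 regions lay near at least 1 of these. Of those regions, 6351 (94.5%) were at a start and 367 were at a far end without a start. An annotated end fell inside 6755 regions, or 83.3%. Most regions had a lone neighbour: 6737 were near 1 gene, 1331 near 2 and 39 near 3.

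At starts, the median summit of the 6 lists was 9 bp before the start, with an interquartile range from −77.5 to 88 bp. Within 100 bp of the start lay 56.9% of these summits, and within 250 bp 77.2%. Far-end regions had no such focus. Their median summit lay 285 bp past the end, the interquartile range ran from −497 to 757 bp, and 2.45% lay within 100 bp. Another annotated start fell inside 19 of the 367 far-end regions (5.18%).

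**Figure D1:**
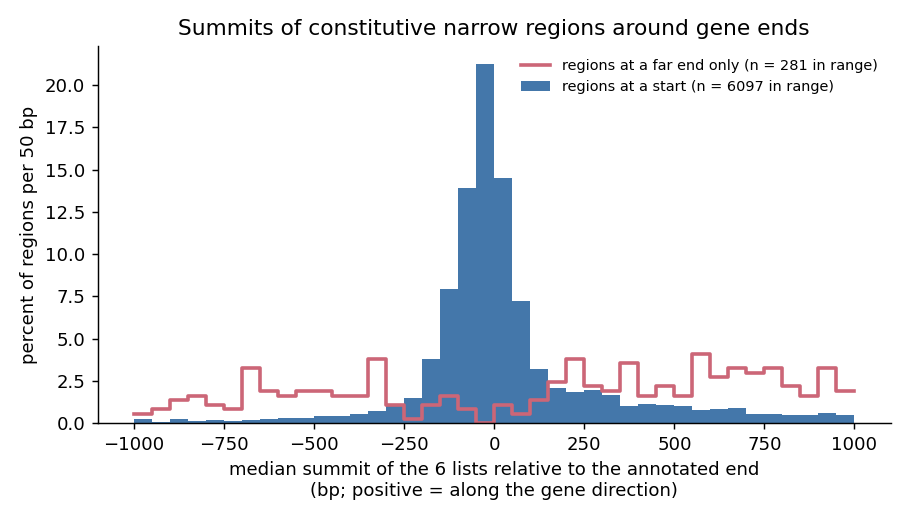
Percent of regions per 50 bp (vertical axis) by the distance in bp from the annotated gene end to the median summit of the 6 lists (horizontal axis). Bars show regions at a start, whose summits pile up around it (56.9% within 100 bp), and the line shows regions at a far end only, which are spread out (2.45% within 100 bp).

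Member regions were 777 bp wide in the median, with quartiles of 635 and 964 bp. Constitutive narrow regions away from gene ends had a median width of 588 bp, and regions of 1 to 5 lists at gene ends 328 bp. In 6865 regions (84.7%) each list had exactly 1 peak, and the 6 summits then spanned a median of 96 bp. Rffl and Rad51d shared a region of 1499 bp, just inside the width limit. Itga4, an integrin subunit of blood cells, and C9orf72 had constitutive regions of 1501 and 1502 bp and were left out. At the distance limit, the regions of Errfi1 and Hspb7 lay 998 and 999 bp from the end, while those of Sptlc1 and Wapl, at 1002 and 1003 bp, were left out.

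The strength of a region was taken as the percentile of its fold enrichment within each list, since the authors' fold and q values are each peak's own. The median member stood at the 83.4th percentile of the 6 lists. All 6 lists placed 1253 regions (15.5%) above their 90th percentile and 66 (0.814%) under their 50th. The 5 highest were at Wls (a far end), Smpd3, Nckap1l, Msantd4 and Arrdc4, each with a median percentile of 99.9. Nckap1l encodes a regulator of actin in blood cells. The 5 lowest were at Zfp36 (0.122), Inka1 with Uba7 (2.20), Inka1 (2.57), the far end of Klf2 (3.52) and Abhd16b with Tpd52l2 (4.30). Zfp36 encodes an RNA-binding protein that destabilises cytokine transcripts, and Klf2 a transcription factor of the KLF family.

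The number of peaks per list ranged from 44739 to 69729, yet 8300 to 8646 of them lay in member regions in every library. Members held 543, 733 and 766 of the 1000 strongest peaks by fold in the Control lists, and 454, 452 and 449 in the lists titled 6bKO. The 2 ranges do not overlap, but the lists differ in length and the members were chosen on them, so this is a description only. The median width of a library's own peaks in the members was 482, 541 and 639 bp in Control and 472, 587 and 682 bp in 6bKO. The ranges overlap, with means of 554 ± 79.3 bp and 580 ± 105.2 bp (SD, n = 3 each).

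Promoters in member regions were rich in CpG. Of 32851 RefSeq promoters in the table, 7652 (of 6906 genes) had their start in a member region. These windows, from 250 bases before to 50 after the start, held a median of 23 CpG, against 7 over all promoters and 3 where the start lay in no region. Their median GC content was 62.7% (all promoters 52.7%). The ratio of observed to expected CpG was above 0.6 in 82.0% of them and in 35.8% of all promoters. Starts in the wide constitutive regions (1500 bp or more, n = 294) were richer still, with a median of 27 CpG. Starts in constitutive narrow regions away from the outer gene ends had a median of 17 and those in regions of 1 to 5 lists 15, and 58.0% and 52.2% of them had a ratio above 0.6.

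Matches to 8 of the 12 motifs searched were more frequent at member starts than over all promoters. The SP and KLF letters occurred in 72.0% of member windows and in 35.7% of all, and the ETS letters in 22.6% and 8.86%. Over the promoters of protein-coding genes alone the shares were 46.2% and 11.6%, and in starts in regions of 1 to 5 lists 52.3% and 9.15%. NRF1 (GCGCATGCG) occurred in 4.26% and 1.75%, YY1 (AAGATGGCG) in 3.93% and 1.403%, CREB and ATF in 3.99% and 1.79%, ZNF143 (ACTACAATT) in 0.876% and 0.393%, and the CTCF core (AGGGGGC) in 17.1% and 10.6%. The CCAAT box was common everywhere, at 41.8% against 37.4%. The other 4 were rarer at member starts. The TATA box letters, counted anywhere in the window, occurred in 5.23% of member windows against 13.6% of all (12.6% at protein-coding genes). AP-1, the factor that contains Fos, had its letters TGANTCA in 3.75% against 7.81%. GATA factors, regulators of several blood lineages, had their letters AGATAAG in 1.36% against 3.04% (2.64% at protein-coding genes). RUNX factors, which are needed to form and keep blood stem cells, had their letters TGTGGTT in 3.59% against 5.27%. Windows of neighbouring starts can share bases. Matches were counted on both strands, and overlapping matches of different motifs were each counted. The 95% Wilson interval of each share at member starts lay outside the value for all promoters and outside that for protein-coding genes. The promoters compared differ in GC and CpG content and were not matched on it. The part of base content in these shares was not tested.

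ETS matches were more frequent at the members than in the wide regions, of whose 294 windows 11.6% held one (95% Wilson interval 8.39% to 15.7%). NF-Y matches were so too, with 24.5% in the wide regions (interval 19.9% to 29.7%), but starts in no region had 37.8%. YY1 matches occurred in 1.36% of wide windows, as did CREB and ATF matches (interval 0.530% to 3.45% for each). The CTCF core went the other way, with 22.1% in the wide regions (interval 17.7% to 27.2%). YY1 matches had the most fixed place. Of 314 matches in member windows, 36.6% began between 10 and 29 bases after the start, where an even spread over the window gives 6.67%. ETS matches were fullest from −10 to 9 (16.8%), SP and KLF and NRF1 matches from −30 to −11 (12.0% and 16.5%), and CCAAT matches from −70 to −51 (13.4%). AP-1, GATA and RUNX matches had their medians at −128, −143 and −128. Matches to the TATA box letters had theirs at −152 and were fullest from −250 to −231 (14.3%), so they were not gathered close to the start.

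RNA was found at nearly all genes that had a member region. A matching gene identifier was found for 21190 of the protein-coding genes (96.8%), 8813 of them with a member region. Of these 8813 genes 91.4% passed the filter on low counts, against 49.7% of 5795 genes whose regions were in 1 to 5 lists and 16.6% of 6367 genes with no region. All 6 libraries were at 0 counts for 69 member genes (0.783%) and for 2047 genes with no region (32.2%). The share that passed rose with the highest number of lists in any region at the gene, from 29.1% for 1 list over 36.5%, 49.4%, 60.9% and 74.7% to 91.5% for 6. Of 215 genes with only a wide constitutive region 93.5% passed.

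**Figure D2:**
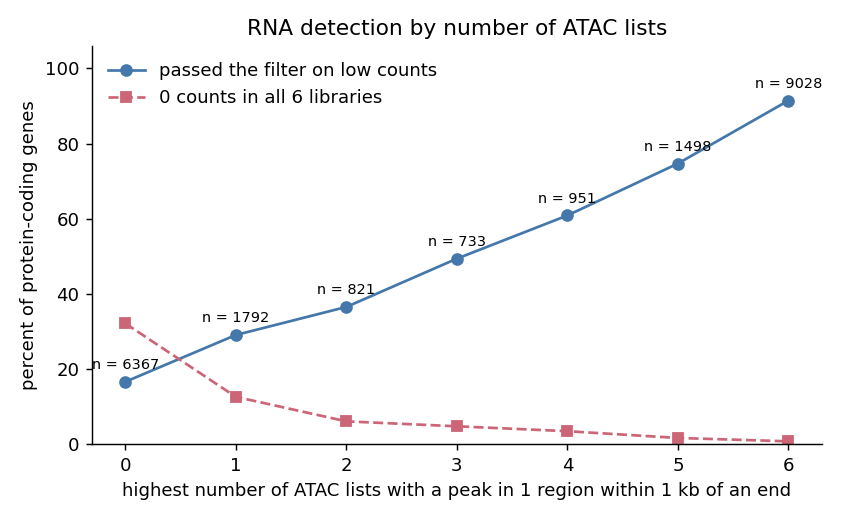
Percent of protein-coding genes (vertical axis) that passed the filter on low counts (circles) or had 0 counts in all 6 RNA libraries (squares), by the highest number of ATAC lists with a peak in 1 region within 1 kb of an end (horizontal axis). The share that passed climbs from 16.6% with no list to 91.5% with 6.

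The end at which a region lay went with a different RNA share. Of genes with a member region at their start 93.5% passed the filter (6422 of 6865), and of genes with one at the far end only 59.1% (205 of 347). Their median levels were 35.8 and 2.95 CPM (counts scaled to the size of the library), without regard to transcript length, and 1.43 and 0.192 CPM per kb of gene span. In all 6 RNA libraries the median log2(CPM + 0.5) of member genes was above that of genes with no region, by 5.98 to 6.13. The median of the latter was at 0 counts in every library. Among genes that passed the filter the gap was 1.35 on average.

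Member genes supplied 73.2%, 73.3% and 73.2% of protein-coding counts in Control and 72.5%, 73.1% and 72.9% in Kdm6b-KO. The Kdm6b-KO values all lay below the Control values (mean difference −0.41 percentage points, exact permutation p = 0.1, two-sided, the smallest that 3 against 3 allows). With only regions under 1000 bp counted, the difference turned to 0.533 percentage points higher in Kdm6b-KO.

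Gene lists differed widely in how many members had a constitutive narrow region. Genes needed by every cell were mostly covered: 33 of 37 aminoacyl-tRNA synthetases (89.2%), 23 of 28 Mediator subunits (82.1%), 31 of 39 proteasome subunits (79.5%), 40 of 52 SR and snRNP splicing proteins (76.9%), 60 of 81 cytosolic ribosomal proteins (74.1%) and 53 of 78 mitochondrial ribosomal proteins (67.9%). Markers of other blood cells were covered less: 5 of 14 erythroid markers (35.7%), 3 of 14 mast cell and megakaryocyte markers (21.4%), 3 of 16 neutrophil and monocyte markers (18.8%) and 1 of 18 lymphoid markers (5.56%). The other 13 neutrophil and monocyte markers had a region in 1 to 5 lists. Large families of other tissues had few: 3 of 109 keratin genes (2.75%), 5 of 1106 olfactory receptors (0.452%), 1 of 353 vomeronasal receptors (0.283%) and none of 71 defensins, which allows up to 5.13% by the Wilson interval. Over all protein-coding genes the share was 40.8%.

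Stem cell transcription factors were covered in 23 of 29 cases (79.3%), among them Meis1 at 1158 CPM, Hlf at 577.5 CPM, Myb, Runx1, Tal1, Mecom and Gfi1b. Fli1, an ETS factor, had no region within 1 kb of either outer end although its mean was 1431 CPM. Gata2 (325.2 CPM) and Lmo2 (407.0 CPM) had regions in 1 and 3 lists. Stem cell surface receptors were covered in 10 of 20 cases. Kit, the stem cell factor receptor, had a member region. Slamf1, which encodes the CD150 used in the sort, had no region, and Ly6a, which encodes Sca1, had one in a lone list. Of 39 Hox genes 4 had a member region, Hoxa3, Hoxa9, Hoxa10 and Hoxb4, and of 30 marker genes of other tissues 5 did, Actn2, Sftpc, Krt8, Scgb1a1 and Apoa1, all under 2 CPM.

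**Figure D3:**
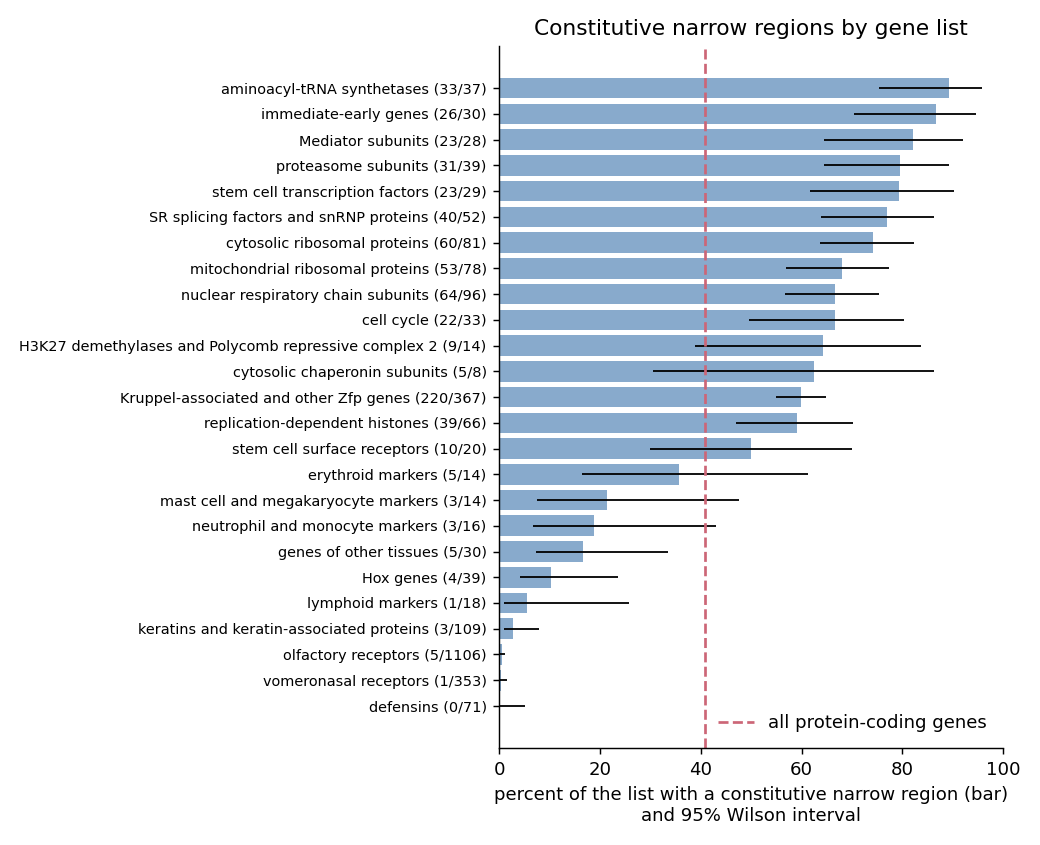
Percent of the genes of each list (vertical axis, with the number covered and the list size) that had a constitutive narrow region within 1 kb of an end (horizontal axis, bars, with 95% Wilson intervals as lines). The dashed line marks the 40.8% of all protein-coding genes, and lists run from 0% of defensins to 89.2% of aminoacyl-tRNA synthetases.

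By chromosome, the X stood lowest among those with any region at 24.7% of 966 genes, and chromosome 8 highest at 48.8% of 1043. Chromosome 7, which carries many olfactory receptors, was at 34.5%. None of 256 genes on the Y had one.

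Kdm6b itself had no member region. Its counts were 92.0, 282.5 and 220.6 CPM in Control against 142.5, 202.1 and 191.3 CPM in Kdm6b-KO, so the groups overlapped (log2 difference −0.15, SE 0.35, adjusted p = 0.882). The counts cover the whole gene and do not resolve a floxed part. The nearest constitutive regions ended 1104 bp inside its upper end and 1245 bp beyond its lower end. The related demethylase gene Kdm6a was near the limit too, with a constitutive region of 973 bp that began 1056 bp inside its start. An annotated start away from the outer end lay in a constitutive region for 326 of the 1058 tested genes with no region at an outer end.

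Few member genes were called different between Kdm6b-KO and Control in the main fit, a count that depends on the method and the libraries. Of 8056 tested, 24 passed an adjusted p of 0.05 in edgeR, or 0.298%, and 0.461% of all 15185 tested genes did. The calls split into 12 higher and 12 lower, where the background was 0.244% higher and 0.217% lower over all tested genes. Of 12196 tested protein-coding genes 45 were called (0.369%), 30 higher and 15 lower. Genes with regions of 1 to 5 lists had 18 of 2881 called (0.625%), 15 higher and 3 lower. In the 24 called member genes the Control and Kdm6b-KO values did not overlap, which the calls themselves favour. The values did not overlap in 21.0% of tested member genes, 21.2% of tested protein-coding genes and 20.5% of all tested genes. An unadjusted p under 0.05 was reached by 15.1% of member genes, 15.1% of protein-coding genes and 14.8% of all genes. The median log2 fold change of member genes was 0.03, beside 0.04 for all protein-coding genes tested. The count rested on the libraries: it was 5 without Kdm6b-KO replicate 3, 8 without Kdm6b-KO replicate 2, 253 without Control replicate 1 and 91 without Control replicate 3. Scaling by library totals raised the median log2 fold change of all genes by 0.15 and gave 35 higher and 11 lower.

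Chromosome 11, which carries Kdm6b, held 16 of the 24. It holds 699 of the tested member genes, of which 2.29% were called, 11 lower and 5 higher. All protein-coding genes tested on that chromosome had 2.27% called. Away from chromosome 11, 8 of 7357 member genes were called (0.109%), 7 higher and 1 lower, and 0.197% of all protein-coding genes tested there.

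Of the genes that fell, Med1 had the largest change among those above 5 CPM. Med1 encodes a Mediator subunit that contacts nuclear receptors. Its levels were 1279, 1584 and 817 CPM in Control against 221, 172 and 180.0 CPM in Kdm6b-KO, which is −2.68 on the log2 scale (SE 0.27, adjusted p = 0.000208). It was the only one of 23 tested Mediator genes with a member region to pass, and 12 of the 23 had positive and 11 negative changes. Its region is 1094 bp wide and stood at the 82.7th percentile. Srsf2, a splicing factor of the SR family, had 2030, 5175 and 2602 CPM in Control against 770.4, 632 and 799.8 CPM in Kdm6b-KO (−2.15, SE 0.33, adjusted p = 0.00749). Kpna2 had 26.3, 23.1 and 21.7 CPM in Control against 5.51, 3.38 and 6.63 CPM in Kdm6b-KO (−2.17, SE 0.30, adjusted p = 0.00281). All 3 genes lie on chromosome 11. Their Control and Kdm6b-KO values did not overlap, which the calls themselves favour, and neither did those of 20.5% of all tested genes.

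Cox11 and Stxbp4 share a member region and fell together. Cox11 encodes a copper chaperone of cytochrome oxidase, and Stxbp4 a syntaxin-binding protein. They start 48 bp apart and run in opposite directions from the region at chr11:90637742-90638762. Stxbp4 had 225, 247 and 211 CPM in Control against 65.6, 75.3 and 47.8 CPM in Kdm6b-KO (−1.86, SE 0.21, adjusted p = 0.000429). Cox11 had 23.0, 38.1 and 29.6 CPM in Control against 10.6, 8.39 and 5.19 CPM in Kdm6b-KO (−1.92, SE 0.31, adjusted p = 0.0084). The shared region stood at the 87.3rd percentile, between 77.7 and 91.0 over the 6 lists.

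This was the only pair with both genes called. There were 733 pairs of genes on opposite strands that extend away from the same member region, with both starts within 1000 bp of it, at 720 regions. In 480 pairs the genes did not overlap, and their starts were a median of 101 bp apart. In the other 253 the first parts of the genes overlapped, by a median of 280 bp. Both genes were tested in 627 pairs, and in 4 of these 1 gene was called. Hmmr, a spindle gene, fell (−1.05), and its partner Nudcd2 had 0.27. Mettl23 fell (−1.86) and its partner Jmjd6 had 0.10. Srsf2 fell and Mfsd11 had −0.02, and Cbx3, a heterochromatin protein gene, fell (−1.17) where Hnrnpa2b1 had 0.09. The difference within a pair was not tested. Mettl23 and Srsf2 are themselves neighbours, with far ends that face each other at chr11:116849740 and chr11:116849897. Whether their falls are separate was not tested. The Srsf2 and Mettl23 pairs overlap their partners on opposite strands, and no source used here gives the strand setting of the counting. Reads of the overlapping stretches therefore cannot be told apart. Cox11, Gid4 and Ppp1r15a also overlap another protein-coding gene. Over the 627 pairs the 2 log2 fold changes had the same sign in 60.3% and a Pearson r of 0.22 (Spearman rho 0.22), a description across pairs that share libraries. Over the 417 tested pairs without overlap the same sign was found in 60.2%, with an r of 0.25 (rho 0.22). No pairs of genes without a shared region were set beside these, so the part of the shared region was not tested.

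The remaining genes that fell were Nlrp1a, Lyrm7, Gid4 and Xaf1, all on chromosome 11. Xaf1, an interferon-induced gene of cell death, had 75.4, 64.8 and 69.0 CPM in Control against 30.7, 32.8 and 27.2 CPM in Kdm6b-KO (−1.21, SE 0.19, adjusted p = 0.0084). Gid4, a substrate receptor of a ubiquitin ligase, had 145, 207 and 130.4 CPM in Control against 53.9, 65.1 and 66.3 CPM in Kdm6b-KO (−1.38, SE 0.21, adjusted p = 0.00705). Lyrm7, an assembly factor of respiratory complex III, had 11.2, 14.6 and 11.3 CPM in Control against 4.72, 3.70 and 2.62 CPM in Kdm6b-KO (−1.76, SE 0.34, adjusted p = 0.0361). Lyrm7 had the strongest region of the 24 genes by median percentile, at 98.3. Nlrp1a, an inflammasome sensor gene, was low throughout, with 16, 31 and 103 counts in Control against 9, 4 and 17 counts in Kdm6b-KO.

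**Figure D4:**
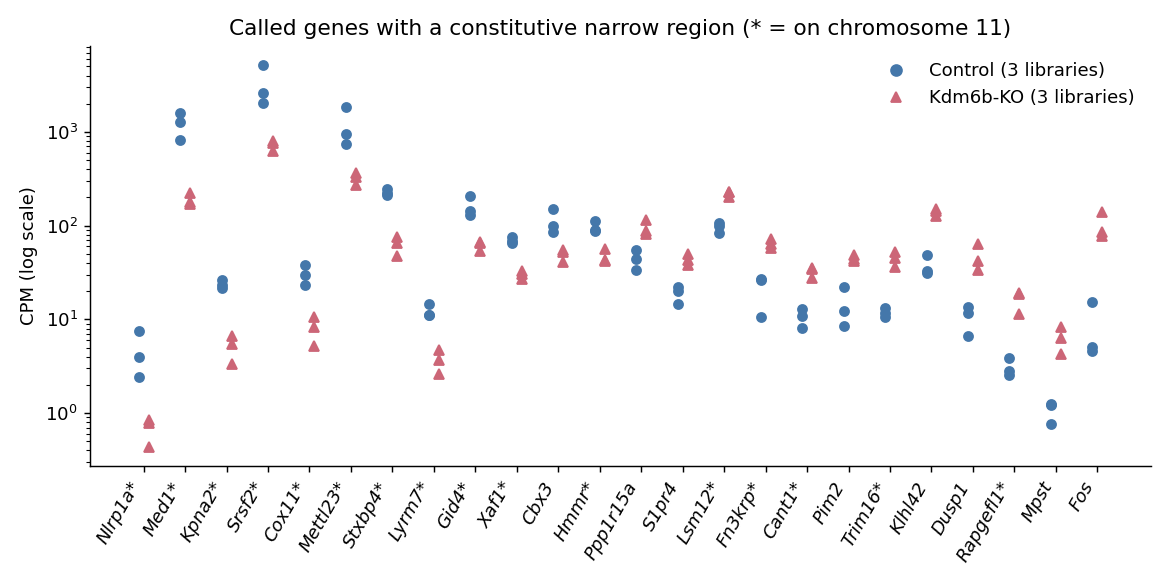
CPM on a log axis in each of the 3 Control (circles) and 3 Kdm6b-KO (triangles) RNA libraries for the 24 called genes with a member region, ordered by log2 fold change; asterisks mark the 16 on chromosome 11. The Control and Kdm6b-KO points do not overlap in these genes, which were chosen by the test, and in 20.5% of all tested genes.

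Immediate-early genes, which cells switch on within minutes of a stimulus, supplied 3 of the increases off chromosome 11, Fos the largest of these. Fos, a subunit of AP-1, had 15.2, 5.08 and 4.60 CPM in Control against 78.3, 139 and 85.5 CPM in Kdm6b-KO (3.65, SE 0.50, adjusted p = 0.0323). Dusp1, a phosphatase that switches off MAP kinases, had 13.7, 6.61 and 11.8 CPM in Control against 33.4, 64.2 and 42.2 CPM in Kdm6b-KO (2.12, SE 0.31, adjusted p = 0.0065). Ppp1r15a, a regulator of the stress phosphatase, had 33.9, 44.1 and 55.7 CPM in Control against 82.2, 115 and 88.4 CPM in Kdm6b-KO (1.09, SE 0.22, adjusted p = 0.0439). Each Kdm6b-KO value was above each Control value in these 3 genes, which the calls themselves favour. The values did not overlap in 20.5% of all tested genes.

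The list of 30 immediate-early genes had a member region at 26 (86.7%), and 24 of those were tested. Of the 24, 3 (Fos, Dusp1 and Ppp1r15a) were called, all higher, where 0.298% of member genes were called. Among the 24, 19 had positive and 5 negative log2 fold changes, where 53.0% of member genes and 49.9% of all tested genes were positive. Their median was 0.91, beside 0.04 for all protein-coding genes. The list was drawn up with earlier results of these data known, so its direction is no independent evidence. Zfp36 (2.00, adjusted p = 0.0754), Jun (2.21, adjusted p = 0.193) and Egr1 (1.81, adjusted p = 0.134) did not pass.

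The regions of immediate-early genes were weak for members. The strongest region per gene had a median percentile of 71.3 over the list, and 84.7 over all 8923 genes. Jund (7.38), Zfp36 (23.6), Zfp36l1 (28.1), Egr1 (37.2) and Fos (38.4) were lowest. By contrast Klf6 and Dusp6 reached 93.9. The Fos region stood at 5.96, 41.0 and 63.5 in the Control lists and at 46.5, 35.8 and 12.1 in the lists titled 6bKO, so the groups overlapped. That of Dusp1 stood at 53.5, 80.4 and 72.9 and at 33.9, 57.5 and 56.5, again with overlap. Hox genes (median 56.8, 4 genes) and stem cell transcription factors (72.5, 23 genes) were also under the median of all genes. So were replication-dependent histones (76.8), stem cell surface receptors (78.3), cytosolic chaperonin subunits (80.5) and, narrowly, cytosolic ribosomal proteins (83.7), among other lists. Aminoacyl-tRNA synthetases were at 90.5.

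On chromosome 11, Rapgefl1, Trim16, Cant1, Fn3krp and Lsm12 rose. Rapgefl1, a guanine nucleotide exchange factor-like gene, had 3.84, 2.54 and 2.85 CPM in Control against 11.4, 18.7 and 19.2 CPM in Kdm6b-KO (2.43, SE 0.34, adjusted p = 0.00323). Trim16, a gene of the tripartite motif family, had 11.8, 10.5 and 13.4 CPM in Control against 36.4, 52.9 and 44.9 CPM in Kdm6b-KO (1.90, SE 0.24, adjusted p = 0.00114). Cant1, a calcium-activated nucleotidase, changed by 1.62, Fn3krp by 1.57 and Lsm12 by 1.19. Fn3krp had 10.6, 26.2 and 27.3 CPM in Control against 63.5, 71.5 and 57.2 CPM in Kdm6b-KO. In all 5 the groups did not overlap, which the calls themselves favour, and neither did they in 20.5% of all tested genes.

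Elsewhere Klhl42, Pim2, Mpst and S1pr4 rose. Klhl42, a ubiquitin ligase adaptor, had 48.5, 32.7 and 31.6 CPM in Control against 127, 143 and 150.3 CPM in Kdm6b-KO (1.90, SE 0.21, adjusted p = 0.000429). Pim2, a kinase of cytokine signalling, had 8.45, 12.5 and 22.4 CPM in Control against 44.1, 42.5 and 48.6 CPM in Kdm6b-KO (1.62, SE 0.30, adjusted p = 0.0323). S1pr4, a receptor for sphingosine-1-phosphate, had 20.3, 14.6 and 22.4 CPM in Control against 43.4, 37.9 and 49.3 CPM in Kdm6b-KO (1.19, SE 0.24, adjusted p = 0.039). Among the called genes with a strand, S1pr4 was the only one whose member region lay at its far end alone, near Ncln. No strand was given for Lsm12, Cant1, Trim16 and Klhl42. Mpst, a sulfurtransferase gene, was low, with 8, 6 and 17 counts in Control against 72, 39 and 168 counts in Kdm6b-KO.

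Across genes, the RNA difference went with the rank of the region at the start, and more widely with the RNA level of the gene. The 6865 genes were put in quintiles by the percentile of their strongest start region. From the lowest quintile (up to the 70.4th percentile) to the highest (from the 94.5th), 88.9%, 92.7%, 94.5%, 95.5% and 96.1% passed the filter on low counts. The median log2 fold change fell in the same order, from 0.15 over 0.07, 0.00 and −0.02 to −0.05. The called genes numbered 4, 2, 8, 2 and 3 of 1220, 1273, 1298, 1311 and 1320 tested. Of these calls 3, 1, 2, 0 and 1 were higher in Kdm6b-KO. Over all tested genes with a member region at the start 0.296% were called, and over all tested genes 0.461%. The calls are too few to bear on the order of the medians.

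The order of quintiles was the same in each tertile of genes by RNA level. Between 0.717 and 23.0 CPM the medians ran from 0.29 to 0.07, between 23.0 and 66.6 CPM from 0.19 to −0.01, and above that from −0.05 to −0.17. The medians thus fell with RNA level too, from 0.29 to −0.05 in the lowest quintile and from 0.07 to −0.17 in the highest. Both falls were wider than those across quintiles within any tertile. Level and rank also rose together, with a median of 24.6 CPM in the lowest quintile and 41.3 CPM in the highest. Within each library, the median log2(CPM + 0.5) of the lowest quintile lay below that of the highest. It did so by 0.53, 0.62 and 0.60 in Control and by 0.44, 0.38 and 0.39 in Kdm6b-KO, so the groups did not overlap. These values come from the same counts as the fold changes, so they restate the order above and are no further evidence. The gap between the end quintiles was 0.21 in log2 fold change and ranged from 0.17 to 0.24 when each library was left out. Genes are not replicates and no p is given.

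**Figure D5:**
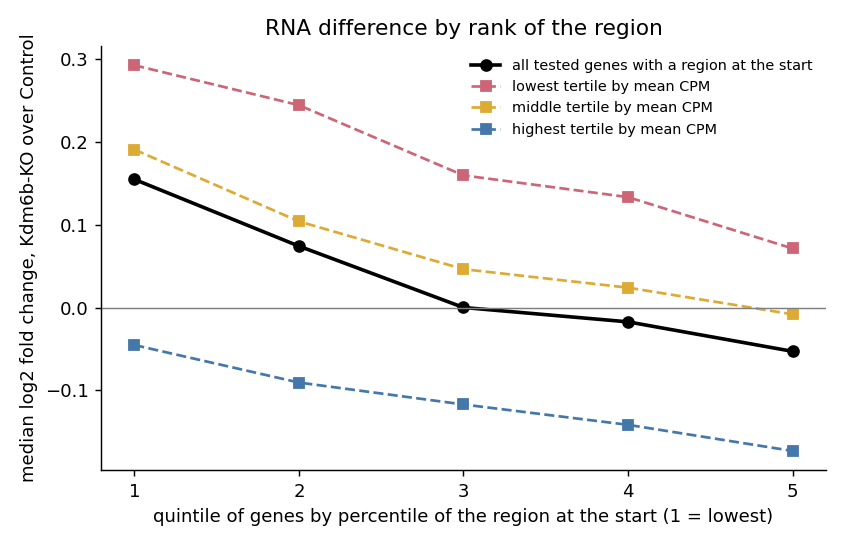
Median log2 fold change of Kdm6b-KO over Control (vertical axis) by quintile of genes on the percentile of the region at their start (horizontal axis), for all tested genes with such a region (black) and within tertiles of mean CPM (dashed). In each line the median falls from the weakest to the strongest regions, from 0.15 to −0.05 over all genes.

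Genes grouped by promoter motif had median changes near that of all member starts. Among tested genes with a start in a member region, the median log2 fold change was 0.02 with SP and KLF letters (4381 genes), −0.01 with CCAAT (2591 genes), −0.01 with ETS (1450 genes), −0.05 with YY1 (268 genes), −0.06 with CREB and ATF (247 genes) and 0.06 with AP-1 (232 genes), beside 0.02 for all 5975. Called genes made up 0.318% of the 5975. The share was 0.297% with SP and KLF letters, 0.309% with CCAAT, 0.0690% with ETS, 0.373% with YY1, 0.369% with the CTCF core and 0.431% with AP-1. It was 1.21% with the TATA box (4 of 330), 1.10% with GATA (1 of 91) and 0.810% with CREB and ATF (2 of 247, Dusp1 and Ppp1r15a). No gene with NRF1, ZNF143 or RUNX letters was called (265, 60 and 223 genes). Most of these shares rest on 4 genes or fewer.

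The RNA libraries had 6793873 to 19336121 counts in genes. HSC markers were found in all 6, with Kit between 781 and 2169 CPM, Meis1 between 976.5 and 1470.2 CPM, Slamf1 between 49.7 and 80.8 CPM, Fgd5 between 32.0 and 59.4 CPM and Hoxb5 between 16.01 and 30.8 CPM. Cd48, which the sort selects against, was at 4.60 to 16.7 CPM. Markers of other blood cells moved with single libraries. The summed level of 16 neutrophil and monocyte markers was 1548 to 4199 CPM in Control, 4936 CPM in Kdm6b-KO replicate 1, and 576 and 683 CPM in Kdm6b-KO replicates 2 and 3. Of the 16, 11 had their 2 lowest values in those last libraries, among them Mpo, Elane and Ngp, whereas Lyz2 and Csf1r did not. The 14 erythroid markers summed to 8294 to 11183 CPM in Control and 4510 to 5651 CPM in Kdm6b-KO, without overlap, most of it from Car2, which has a member region (−0.89, adjusted p = 0.150). The 14 mast cell and megakaryocyte markers summed to 337 to 402 and 257 to 496 CPM, and the 18 lymphoid markers to 188 to 302 and 144 to 226 CPM. No marker of these lists was at 0 in all libraries, and none was called. The part of these differences in the results above was not tested. In bulk samples, fewer cells of a type and less RNA per cell cannot be told apart.

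A small group of member genes was listed at 0 counts in every library. Of the 69, 42 had the region at a start, and for 34 the region was near another gene as well. They include runs of neighbouring genes: Ranbp1, Trmt2a and Dgcr8 on chromosome 16, and on chromosome 19 Gstp1, Cdk2ap2 and Pitpnm1 in one run and Tbc1d10c, Ppp1ca, Clcf1 and Pold4 in another. These genes were named after their values were seen. Ranbp1, Ppp1ca and Dgcr8 act in every cell (nuclear transport, a phosphatase and microRNA processing), so only the listing at 0 is reported. Their regions stood at 88.5, 87.0 and 93.2 in median percentile.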

How the data were processed

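The authors deposited raw read counts per Ensembl gene for 6 RNA libraries and 1 peak list per ATAC library. In these lists the authors give fold enrichment as a ratio and p and q as −log10 values, used here only to rank or filter within a list. STAR 2.0.4, featureCounts 1.4.5, HTSeq 0.8.0 and Partek 6.6, and for ATAC cutadapt 1.16, BWA 0.7.16a and MACS2, are named per the submitters' processing notes, without roles. No peak had a −log10 q under 2.00, and ATAC depth is unknown. Lines for unassigned reads were left out (16.5% to 19.7% of reads were assigned). Gene positions and promoters came from RefSeq (GRCm38.p6), and 96.8% of protein-coding genes matched a count row by symbol or synonym.

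Genes were tested with edgeR 4.0.16 (filterByExpr, TMM, robust quasi-likelihood, two-sided, Benjamini-Hochberg over all tested genes) on genotype alone. SE is the log2 fold change over the root of F. Alternatives used DESeq2 1.42.0 and limma 3.58.1. The steps were tested on simulated data. Replicates are pools labelled as biological. The members, lists and named genes were chosen with earlier results of these data known. Genes named are Kdm6b and Kdm6a, called member genes (full values for those of at least 5 CPM), the regions of extreme percentile and at the limits, and list members. Genes listed at 0 and stem cell genes beyond the rule were named after their values were seen. Intervals cover counting error only.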

Additional observations from a re-analysis of the deposited data

How the results depend on the processing

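Over all genes, 433 were called by DESeq2, 576 without a filter on low counts and 20 to 519 when each library was left out, beside 70. Of member genes, 213 were called by DESeq2, 46 with library totals without TMM, 252 without a filter, 5 to 253 when each library was left out and 8 away from chromosome 11 (an alternative chosen after seeing the data), beside 24. Counting a region at the start only (also chosen after seeing the data) gave 19. Of the 24, 5 (Med1, Kpna2, Stxbp4, Trim16 and Klhl42) were called under each of the 11 alternative fits, and all 24 kept their direction in each. With the replicate block 88 genes and 30 member genes were called, 56 and 22 of them shared with the fit without it. Libraries of the same replicate number had correlations of 0.032, 0.161 and −0.127 in their deviations, so the numbers were not taken to pair them. The difference in the share of counts turned to 0.533 with regions under 1000 bp. The gap in median log2 level between member genes and genes with no region was 5.08 with a pseudocount of 1, 8.36 with 0.1 and 1.35 among genes that passed the filter, beside 6.06, and a level per coding length was not run. Regions numbered 5378 with a −log10 q of at least 10. The percent of genes with a region was 38.1 and 28.4 at a −log10 q of at least 5 and 10, 32.1 and 41.8 under 1000 and 2000 bp, 38.3 and 44.1 within 500 bp and 2 kb, 39.7 for starts only, and 40.96 to 43.8 when each list was left out. The difference in median peak width, 26.3 bp, ranged from −24.5 (without the third 6bKO list) over −9.67 (without the first Control list) to 80.5 bp. The unknown ATAC depth limits which weak regions reach all 6 lists. The causes of these shifts were not tested.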
